A study of Homo sapiens with 16 samples.

Results

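The genes described here encode the proteins of the mitochondrial ribosome and were taken as every row whose gene symbol begins with MRPL or MRPS followed by a number. The rule found 71 genes, each with 1 transcript, among 10304 RefSeq transcripts listed on hg19, 43 of the large subunit (MRPL) and 28 of the small subunit (MRPS). Their nascent transcription was measured by PRO-seq, which labels the RNA of engaged polymerases by nuclear run-on, in Kasumi-1, a human line from acute myeloid leukaemia that carries the RUNX1-RUNX1T1 fusion. In all 14 libraries both alleles of SMARCA5, the motor of the ISWI remodellers that space nucleosomes, carried FKBP12F36V, a tag through which dTAG-47 sends the protein for degradation. The 4 groups were tagged cells at 0 h, which were untreated (n = 5), and tagged cells given 500 nM dTAG-47 for 2 h (n = 3), 6 h (n = 4) or 24 h (n = 2). None of the groups analysed here received dTAG-47 without carrying the tag, so an effect of the compound itself and loss of SMARCA5 cannot be told apart.

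Mitochondrial ribosomes translate the few proteins encoded by mitochondrial DNA, all of them core subunits of the respiratory chain and the ATP synthase. Their RNA comes from the mitochondrial genome, but each of their proteins is encoded in the nucleus, made in the cytosol and imported, so the nucleus must supply a large set of subunits from scattered genes. NRF1, the ETS factor GABP and YY1 are known to bind the promoters of many nuclear genes for mitochondrial proteins. MRPS36 keeps its symbol although it is now known as a subunit of the oxoglutarate dehydrogenase complex.

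Libraries held 11182894 to 34209362 gene-body reads and 1667950 to 7171601 promoter-proximal reads, and all 71 genes passed the expression filter in both regions. A code in the column names splits the libraries into 3 runs, and libraries are named by time, letter and run. Run 1 holds 2 untreated libraries and 1 at 2 h, run 3 holds 1 untreated library and 2 at 6 h, and run 2 holds 2 libraries of every time, including both at 24 h. In gene bodies the leading principal component, with 46.8% of the variance, set both untreated libraries of run 1 apart, and near promoters the leading one (34.7%) set the 3 libraries of run 3 apart. Unless said otherwise, fold changes below come from a model with a term for the run. Replicates are separate samples by their labels, and p-values measure only the spread between them, which may be technical. Of 9 markers of this leukaemia, 8 were listed, with 88.4 CPM per kb of gene body in untreated cells for MPO, 45.9 for KIT, 24.3 for RUNX1, 7.04 for SPI1, 4.23 for CD34 and 2.1 for CEBPA. CD33 (1.85) and AZU1 (1.6) lay below the median of all transcripts, 1.94, and RUNX1T1 was not analysed here. Of 12 markers of T, B, erythroid and epithelial cells and monocytes, CD4 (2.06) and EPCAM (1.65) were listed and the other 10 were not analysed here. SMARCA5 itself was not called at any time (gene-body log2 fold changes of -0.27, -0.11 and -0.18 at 2, 6 and 24 h), and the tag acts on the protein.

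In untreated cells the genes for mitochondrial ribosomal proteins were transcribed at moderate levels, with a median of 2.48 CPM per kb of listed length in gene bodies, against 1.94 over all transcripts. CPM are reads of a region scaled to the same total in every library, with TMM factors. Genes of the cytosolic ribosome had a median of 14 CPM per kb and genes of the respiratory chain and ATP synthase 2.86. The highest gene was MRPL12, whose protein forms the flexible stalk that recruits translation factors, at 11.5 ± 1.48 CPM per kb (SD, n = 5). MRPL23 (7.22 ± 1.48), MRPL20 (6.70 ± 0.507), MRPL38 (5.76 ± 0.816) and MRPL17 (5.73 ± 0.635) followed, and MRPS16 came next with a range of 4 to 7.45. The untreated ranges of MRPL23, MRPL20, MRPL38, MRPL17 and MRPS16 overlapped, so which genes follow MRPL12, and in what order, is not settled. At the low end stood MRPS31 at 0.420 ± 0.0466 CPM per kb, then MRPS34 (0.553 ± 0.282), MRPL54 (0.683 ± 0.251), MRPL55 (0.692 ± 0.186) and MRPS9 (0.917 ± 0.0785). The ranges of MRPS31, MRPS34, MRPL54 and MRPL55 overlapped. The subunits had nearly the same median, 2.47 CPM per kb for MRPL and 2.53 for MRPS genes.

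These genes carried a large part of their reads near the promoter. The promoter-proximal share of a gene's reads had a median of 36.8% over the 71 genes, against 13.1% over all transcripts, 42.2% for cytosolic ribosomal protein genes and 34.0% for respiratory chain and ATP synthase genes. The genes were also short, with a median listed length of 8.82 kb, against 24.8 kb over all transcripts. Gene-body reads add up over the listed length, so the share also depends on length, and transcripts of like length were not compared. The share varied widely among them. It was 90.8% ± 1.29 for MRPL36, 88.4% ± 2.05 for MRPS12, 85.3% ± 2.22 for MRPL55 and 85.2% ± 9.32 for MRPL54, and only 3.29% ± 1.52 for MRPL47, 3.81% ± 2.50 for MRPS5, 4.89% ± 2.07 for MRPS27 and 5.18% ± 3.18 for MRPL3 (SD, n = 5 each). It was a median of 43.7% in MRPS genes and 32.5% in MRPL genes. Over the libraries the share of the 71 genes summed lay between 23.9% and 41.1%, and that of all transcripts between 9.55% and 20.6%; both were highest in 0 h B of run 2.

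**Figure D1:**
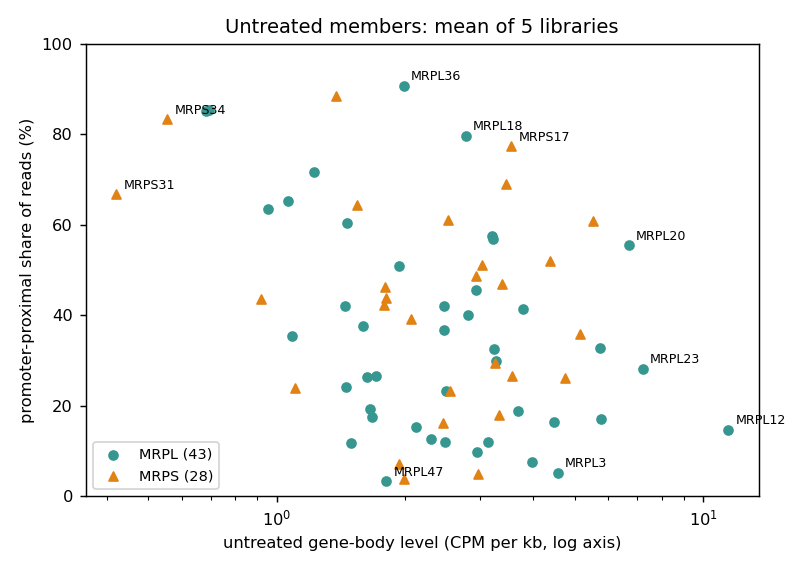
Each point is 1 of the 71 genes (circles MRPL, triangles MRPS), placed by its mean gene-body level in CPM per kb over the 5 untreated libraries (log axis) and by the mean promoter-proximal share of its reads in percent. Levels run from 0.420 for MRPS31 to 11.5 for MRPL12, and shares from 3.29% for MRPL47 to 90.8% for MRPL36.

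RefSeq promoters (GRCh38.p14, 250 bases before to 50 after the start, so 300 bases each) were found for 63 of the 71 genes, 1 promoter per gene. Promoters are shown because these genes share letters there that the rule did not use. The ETS-type string CCGGAAG, on either strand, was in 26 of the 63 (41.3%), against 21.9% of the 8388 promoters of genes in the tables and 10.7% of all 27305 promoters. The YY1-type string AAGATGGC was in 18 (28.6%), against 6.25% and 3.03%. The NRF1-type string GCATGCGC was in 6 (9.52%), against 6.28% and 3.27%. The GC box GGGCGG was in 37 (58.7%, against 71.7% and 44.6%), CCAAT in 19 (30.2%, against 37.8% and 35.7%) and TATAAA in 3 (4.76%, against 4.97% and 12%). A match describes letters, not binding. Median GC content was 59.3% over the 63 promoters and 65.3% over those of genes in the tables. The 5 promoters printed here are of genes called below and were chosen, with their values known, to show each kind of string and a window with none, with ETS-, YY1- and NRF1-type strings in capitals and the gene's strand read 5′ to 3′.
MRPL43, rose at 2 h, chr10:100987448-100987747, minus strand: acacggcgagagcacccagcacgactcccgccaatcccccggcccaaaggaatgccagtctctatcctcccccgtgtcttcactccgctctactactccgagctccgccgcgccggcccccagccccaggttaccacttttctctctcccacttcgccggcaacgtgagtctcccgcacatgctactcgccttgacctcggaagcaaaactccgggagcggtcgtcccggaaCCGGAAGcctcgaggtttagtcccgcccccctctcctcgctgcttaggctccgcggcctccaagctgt
MRPL20, rose at 2 h, chr1:1407244-1407543, minus strand: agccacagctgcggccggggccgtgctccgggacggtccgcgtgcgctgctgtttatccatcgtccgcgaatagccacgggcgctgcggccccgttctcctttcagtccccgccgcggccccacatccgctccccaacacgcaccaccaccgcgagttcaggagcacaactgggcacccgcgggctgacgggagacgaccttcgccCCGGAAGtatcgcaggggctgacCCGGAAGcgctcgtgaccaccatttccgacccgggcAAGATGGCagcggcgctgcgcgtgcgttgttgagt
MRPL17, rose at 24 h, chr11:6683291-6683590, minus strand: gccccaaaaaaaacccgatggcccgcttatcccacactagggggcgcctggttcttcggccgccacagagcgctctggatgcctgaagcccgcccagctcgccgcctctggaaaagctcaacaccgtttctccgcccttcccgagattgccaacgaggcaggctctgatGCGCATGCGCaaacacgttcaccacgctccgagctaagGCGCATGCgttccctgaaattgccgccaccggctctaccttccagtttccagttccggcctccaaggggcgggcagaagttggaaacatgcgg
MRPL3, fell at 2, 6 and 24 h, chr3:131502922-131503221, minus strand: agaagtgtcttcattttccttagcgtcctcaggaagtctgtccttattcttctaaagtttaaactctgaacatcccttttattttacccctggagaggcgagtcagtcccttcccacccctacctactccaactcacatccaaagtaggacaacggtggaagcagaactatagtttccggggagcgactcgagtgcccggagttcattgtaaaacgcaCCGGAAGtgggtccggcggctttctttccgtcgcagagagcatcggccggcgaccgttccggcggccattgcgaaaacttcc
MRPL19, fell at 2, 6 and 24 h, chr2:75646533-75646832, plus strand: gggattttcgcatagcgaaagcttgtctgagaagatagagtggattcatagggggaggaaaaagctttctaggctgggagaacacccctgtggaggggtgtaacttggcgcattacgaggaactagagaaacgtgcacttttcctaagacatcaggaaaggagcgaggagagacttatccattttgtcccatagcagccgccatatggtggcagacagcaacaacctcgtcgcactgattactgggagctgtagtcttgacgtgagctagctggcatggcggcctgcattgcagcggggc
MRPL43 and MRPL3 each hold 1 ETS-type string close before the start. MRPL20 holds 2 such strings and 1 YY1-type string after the start, MRPL17 holds NRF1-type strings, and MRPL19 holds none of the 3 in this window.

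After 2 h of dTAG-47 more of these genes had gained than lost engaged polymerase in the gene body, by small amounts. Of 71, 13 rose, 5 fell and 53 were not called (edgeR quasi-likelihood test, Benjamini-Hochberg adjusted over all 10304 transcripts, threshold 0.05). That is 25.4% called (18.3% rose and 7.04% fell), against 38.6% of all transcripts (19.7% rose and 18.9% fell). Of all 1345 transcripts up to 5.61 kb, 30.4% rose and 3.79% fell, so more rises than falls was not particular to these genes. The median log2 fold change of the 71 was 0.12, against 0.014 over all transcripts, and 46 genes had values above 0 and 25 below. Changes were under 0.5 on the log2 scale in 94.4% of the 71. By subunit, 9 MRPL genes rose and 5 fell of 43, and 4 MRPS genes rose and 0 fell of 28 (6 MRPS genes had an unadjusted p under 0.05). Libraries are scaled on their own counts, so a change shared by most transcripts would not be seen. In these bulk libraries fewer cells of a kind and less nascent RNA per cell cannot be told apart.

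MRPL43, a large-subunit protein found only in mitochondrial ribosomes, rose with the smallest adjusted p (chr10:102737579-102747272, hg19 as listed). Its gene body held 54.1 and 54.4 CPM in the 2 h libraries of run 2 and 60.8 in that of run 1, against 45.2 and 41.4 in untreated libraries of run 2, 32.9 and 34.4 in those of run 1 and 38.3 in that of run 3. All 3 treated libraries lay above all 5 untreated ones. Its log2 fold change of 0.55 ± 0.097 (SE) had an adjusted p of 0.00122, and the call held in each of the 14 fits that left out 1 library and in the 7 other alternatives, with values of 0.32 to 0.61. Within runs the difference was 0.85 in run 1 and 0.33 in run 2. The transcript lies within 1 kb of C10orf2, which encodes the mitochondrial helicase Twinkle and whose own gene body gave -0.05 ± 0.089 at 2 h (adjusted p = 0.656).

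MRPL18 (chr6:160211492-160219461), whose bacterial counterpart binds a small ribosomal RNA, held 29.7 and 26.6 CPM at 2 h in run 2 and 34.4 in run 1, against 23.7, 20.6, 24.6, 20.0 and 21.7 in untreated libraries. The groups did not overlap, and the log2 fold change was 0.48 ± 0.11 (adjusted p = 0.00471). MRPL38 held 42.6, 47.5 and 48.5 CPM at 2 h, against 29.9, 36.9, 44.1, 39.8 and 35.3 untreated. Here 1 untreated library, that of run 3, lay within the treated range, and the change was 0.39 ± 0.093 (adjusted p = 0.00600). MRPL10, which anchors the MRPL12 stalk, held 34.2, 34.5 and 31.8 CPM, against 24.0, 24.9, 28.6, 29.3 and 26.6, without overlap (0.30 ± 0.079; adjusted p = 0.00954). MRPL49 (0.46 ± 0.12), MRPS18B (0.36 ± 0.095) and MRPS10 (0.34 ± 0.096) rose as well, with adjusted p-values of 0.0102, 0.0110 and 0.0148 in the same test. MRPL2 (0.33) and MRPL27 (0.34), which lie near the catalytic centre of the ribosome, MRPL20 (0.27) and MRPS12 (0.57), part of the decoding centre, rose too, with adjusted p-values of 0.0231, 0.0378, 0.0248 and 0.0324. The listed MRPL49 and MRPL42 transcripts carry RefSeq identifiers of non-coding RNA.

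The largest fold changes among the rises belonged to 2 weakly counted genes. MRPL55 held 2.38, 3.52 and 2.91 CPM at 2 h, against 1.17, 1.54, 2.29, 1.80 and 2.30 untreated, with no overlap (0.85 ± 0.22; adjusted p = 0.00893). MRPS34 held 1.04, 1.66 and 0.840 CPM, against 0.355, 0.421, 0.616, 1.22 and 0.829, with 1 untreated library inside the treated range (0.87 ± 0.32; adjusted p = 0.0447). They had means of 42.7 and 18.9 gene-body reads per library. The MRPS34 call held in 2 of the 14 fits with a library left out (0 h A or 2 h A of run 2), and in run 2 alone its value was 0.36 (adjusted p = 0.499). Just outside the threshold lay MRPL52 (0.38 ± 0.14; adjusted p = 0.0514), and just inside it MRPL42 (-0.24; 0.0489).

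Many of the 2 h calls were lost without 2 h B of run 1, 1 of 3 libraries at that time. Its untreated partners are the libraries that stood apart. With 2 h B of run 1 left out, 4 of the 71 genes rose and 0 fell. Of the rises with all libraries only MRPL43 and MRPL27 kept their calls, so the 4 include genes not called there. The share of all transcripts called with a library left out is not given here. MRPL18 was then at 0.36 (adjusted p = 0.0668), MRPL38 at 0.29 (0.0754), MRPL10 at 0.26 (0.0737), MRPL49 at 0.30 (0.145), MRPS18B at 0.32 (0.0797), MRPS10 at 0.28 (0.114), MRPL55 at 0.66 (0.129), MRPL20 at 0.16 (0.269), MRPS12 at 0.48 (0.233) and MRPL2 at 0.39 (0.0509). MRPL27 kept its call without this library and lost it in 6 other fits of this kind (adjusted p = 0.0540 to 0.103). Without 2 h B of run 2, 8 rose and 3 fell. Leaving out both untreated libraries of run 1, a choice made after seeing the data, gave 9 rises and 2 falls.

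The 5 genes that fell at 2 h were all of the large subunit. MRPL3 (chr3:131181045-131221860), a core protein near the peptidyl transferase centre, held 162 and 142 CPM at 2 h in run 2 and 127 in run 1, against 175 and 174 in untreated libraries of run 2, 225 and 202 in those of run 1 and 155 in that of run 3. The groups overlapped only through the run 3 library, and the log2 fold change was -0.41 ± 0.095 (adjusted p = 0.00551). MRPL19 (chr2:75873909-75889334), at the interface between the subunits, held 27.5, 29.6 and 26.4 CPM, against 44.3, 32.1, 33.1, 35.1 and 33.1, without overlap (-0.37 ± 0.11; adjusted p = 0.0178). MRPL33 (-0.24), MRPL30 (-0.31) and MRPL42 (-0.24) fell with adjusted p-values of 0.0416, 0.0436 and 0.0489. Without 2 h B of run 1 the values of MRPL3 and MRPL19 were -0.21 (adjusted p = 0.0607) and -0.26 (0.166), and those of MRPL30 and MRPL42 were -0.071 and -0.066. In run 2 alone MRPL30 was at -0.073 and MRPL42 at -0.076. The MRPL33 call held in 3 of the 14 fits without 1 library, those without 0 h B of run 1 or either 6 h library of run 3.

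**Figure D2:**
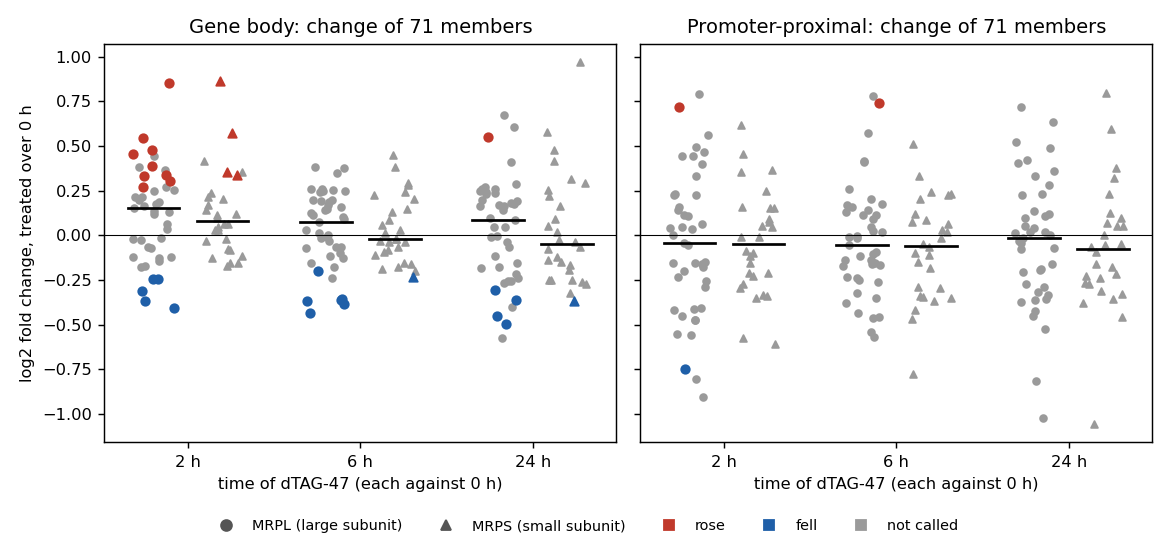
Points are the 71 genes and the vertical axis is the log2 fold change against 0 h in gene bodies (left) and near promoters (right), for 2, 6 and 24 h of dTAG-47. Circles are MRPL and triangles MRPS genes, red points rose, blue points fell, grey points were not called, and black lines are medians of each subunit. In gene bodies 13 points are red at 2 h, 0 at 6 h and 1 at 24 h, and 5, 7 and 5 are blue.

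By 6 h none of the 71 genes was called higher in the gene body and 7 were called lower, 6 MRPL genes and 1 MRPS gene. That is 9.86% of the 71, against 26.8% of all transcripts (13.5% rose and 13.4% fell). In the same test 19 genes had an unadjusted p under 0.05, and DESeq2 with a run term also called 0 rises. The median log2 fold change was 0.013, against 0.012 over all transcripts, with 37 genes above 0 and 34 below.

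MRPL3 held 143 and 143 CPM at 6 h in run 2 and 120 and 128 in run 3, below all untreated libraries (-0.37 ± 0.094; adjusted p = 0.0120). MRPL4 (chr19:10362640-10370736), whose protein lines the exit tunnel for the growing chain, held 25.7 and 24.3 CPM in run 2 and 33.2 and 27.0 in run 3, against 32.6, 37.8, 38.2, 33.5 and 38.8 untreated. Only 6 h A of run 3 reached the untreated range (-0.43 ± 0.11; adjusted p = 0.0140). MRPS27 (chr5:71515236-71616084), a pentatricopeptide repeat protein, held 265, 267, 240 and 246 CPM, against 292, 268, 280, 333 and 326. The groups met without overlap (-0.23 ± 0.062; adjusted p = 0.0158). MRPL19 (28, 26.2, 25 and 26.5 CPM) again lay below every untreated library (-0.38 ± 0.11; adjusted p = 0.0211). MRPL21 (-0.35), MRPL30 (-0.36) and MRPL1, of the mobile stalk through which spent tRNA leaves (-0.20), fell with adjusted p-values of 0.0216, 0.0321 and 0.0457. The uncalled genes with the smallest p were MRPL22 (0.20; adjusted p = 0.0641) and MRPL9 (0.38; 0.0642).

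The 6 h falls had the same direction in both runs that hold this time, which are also the runs they were called from. The calls depended on which libraries were kept. Shares of all transcripts called with a library left out are not given here. Within run 3 and run 2 MRPL3 differed by -0.32 and -0.29, MRPL4 by -0.35 and -0.52, MRPS27 by -0.21 and -0.31 and MRPL19 by -0.36 and -0.33. Omitting 0 h A of run 3 left 2 calls, omitting 6 h A of run 2 left 3 and omitting 6 h B of run 2 left 1, while omitting 0 h A of run 1 gave 11 (1 rose and 10 fell). MRPL3 was at -0.40 without 0 h A of run 3 (adjusted p = 0.0502), and MRPL4 at -0.40 without 6 h B of run 2 (0.0676). MRPL19 and MRPS27 lost their calls when 0 h A of run 3 (adjusted p = 0.0857 and 0.0620), 6 h A of run 2 (0.0570 and 0.0660) or 6 h B of run 2 (0.0850 and 0.0603) was omitted. The values of MRPL21 without 0 h A or 6 h B of run 2 were -0.30 (adjusted p = 0.0612) and -0.27 (0.120). The calls of MRPL30 and MRPL1 were lost in 4 and 8 of the 14 fits with a library left out. Run 2 alone, which has 2 libraries a group, called 26 of the 71, 16 higher and 10 lower, among 4383 transcripts, and the 7 genes above were among the 26.

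At 24 h, which was measured in run 2 only, 1 gene rose and 5 fell. That is 8.45% of the 71, against 19.8% of all transcripts (10.8% rose and 9.08% fell). The median log2 fold change was 0.018, against 0.011 over all transcripts, with 36 genes above 0 and 35 below. MRPS27 held 249 and 238 CPM, against 333 and 326 in untreated libraries of run 2 and 268 to 292 in the others, without overlap (-0.37 ± 0.077; adjusted p = 0.00546). MRPL1 (chr4:78783805-78873944) held 109 and 107 CPM, against 146, 130, 130, 129 and 137 (-0.31 ± 0.085; adjusted p = 0.0225). MRPL19 held 25.7 and 24.6 CPM (-0.49 ± 0.14; 0.0225), MRPL4 27.9 and 22.6 (-0.45 ± 0.14; 0.0387) and MRPL3 144 and 147 (-0.36 ± 0.12; 0.0431 in the same test). These 5 genes lay below every untreated library. The single rise was that of MRPL17 (chr11:6701616-6704632), which held 28.3 and 24.8 CPM, against 19.4, 15.4, 19.3, 16.2 and 16.0 untreated, above every untreated library (0.55 ± 0.16; adjusted p = 0.0316). Within run 2 alone the difference was 0.71, and its 2 h and 6 h values were not called.

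The 24 h calls rested on few libraries. How many of all transcripts were called with a library left out is not given here. With all libraries 22 genes had an unadjusted p under 0.05. Omitting 24 h B left 0 edgeR calls among the 71, omitting 24 h A left 1 and omitting 0 h B of run 2 left 3. Omitting 0 h A or 2 h B, both of run 1, gave 10 each. MRPS27 was at -0.34 without 24 h B (adjusted p = 0.0707) and kept its call in each other fit with a library left out. MRPL17 was at 0.46 without 24 h A (adjusted p = 0.228), 0.64 without 24 h B (0.0851) and 0.48 without 0 h A or 0 h B of run 2 (0.0860 and 0.0905). MRPL1 and MRPL19 lost their calls without either 24 h library (adjusted p = 0.115 to 0.147), and MRPL1 also without 0 h B of run 2 (0.0610). MRPL3 kept its direction but lost its call without either 24 h library, any of the 4 at 6 h, 2 h B of run 2, the untreated library of run 3 or the untreated B library of run 1 (adjusted p = 0.0514 to 0.212). MRPL4 ranged from -0.31 without 24 h B (0.300) to -0.61 without 24 h A (0.0673). Run 2 alone called 31 of the 71, 14 higher and 17 lower, among 4447 transcripts.

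**Figure D3:**
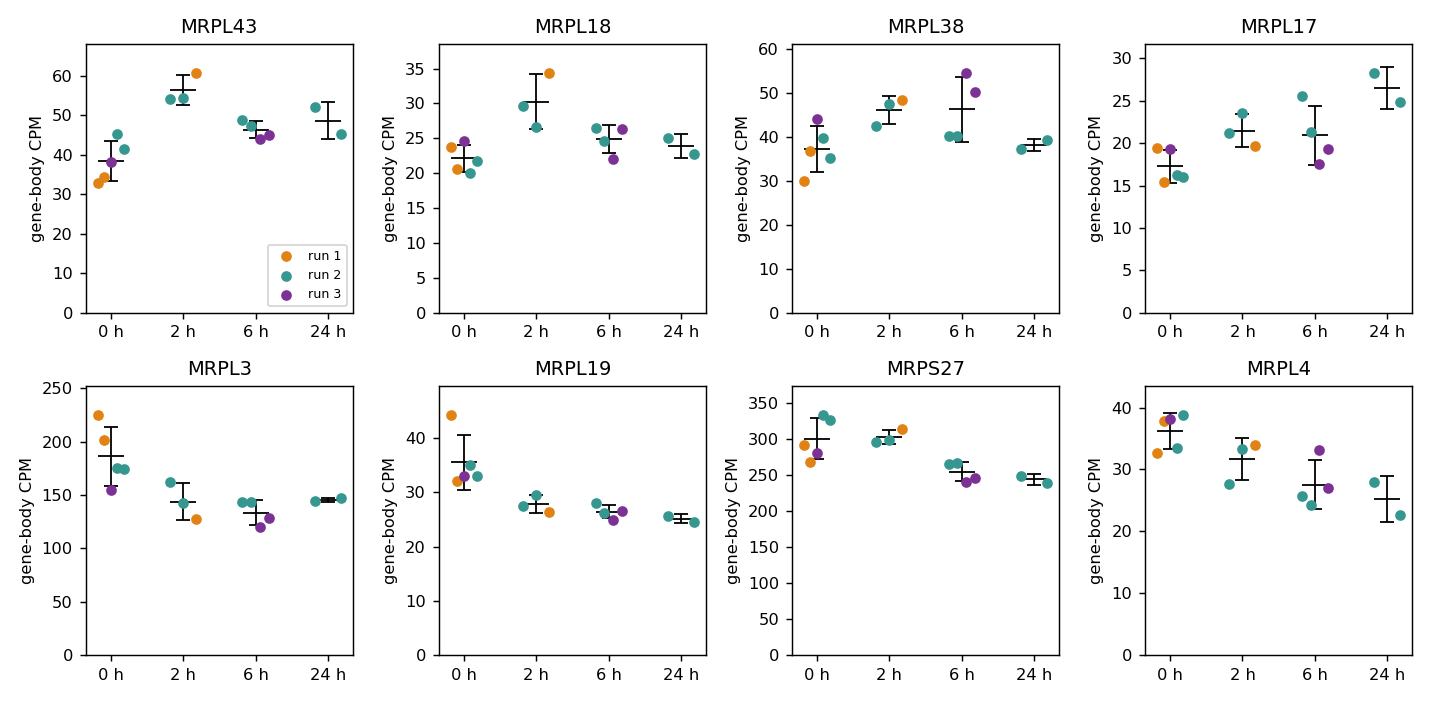
Gene-body CPM of 8 genes in each of the 14 libraries at 0, 2, 6 and 24 h, coloured by run, with black bars for the mean ± SD of each time and axes that start at 0. MRPL43 and MRPL18 are highest at 2 h, MRPL17 at 24 h, and the means of MRPL3, MRPL19, MRPS27 and MRPL4 are lower at 6 and 24 h than at 0 h, with 225 CPM of MRPL3 and 44.3 CPM of MRPL19 in 0 h A of run 1.

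MRPL3 and MRPL19 were the only 2 of the 71 genes called in the same direction at all 3 times, and both fell. The 3 comparisons share their untreated libraries. Contrasts between treated times were added after seeing the data. At 24 h against 2 h, 2 of the 71 were called (2.82%), both lower, against 4.08% of all transcripts (1.05% lower). MRPS27 was lower (-0.35 ± 0.080; adjusted p = 0.0284), with 249 and 238 CPM at 24 h, against 295 and 298 at 2 h in run 2 and 313 in run 1, without overlap. MRPS5 was lower too (-0.39 ± 0.10; adjusted p = 0.0496), with 66.1 and 60.8 CPM at 24 h, against 76.7, 81.5 and 76.0 at 2 h, also without overlap. At 6 h against 2 h edgeR called 0 of the 71, against 1.58% of all transcripts (1.01% higher), and the smallest p was that of MRPS25 (-0.30; adjusted p = 0.0969; unadjusted p = 0.00355).

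Shorter genes tended to have the higher changes and longer genes the lower ones. Across the 71 genes the Spearman coefficient between gene-body log2 fold change and listed length was -0.66 at 2 h, -0.60 at 6 h and -0.60 at 24 h, against -0.40, -0.22 and -0.28 across all 10304 transcripts. These are descriptions across genes that share libraries, scaling and read depth. Among the 24 shortest (up to 5.61 kb), 7 rose and 0 fell at 2 h with a median of 0.26, among the 24 longest (over 13.6 kb) 0 rose and 4 fell with a median of -0.096, and of the 23 between, 6 rose and 1 fell. At 24 h, 21 of the 24 longest were below 0 (median -0.22), and 18 of the 24 shortest were above (median 0.24).

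Other transcripts of like length showed much of the same at 2 h, and short ones had a like median at 24 h. Of the 24 short genes of the set 29.2% rose at 2 h, with a median of 0.26, and of all 1345 transcripts up to 5.61 kb 30.4% did, with a median of 0.27. Of these 1345, 3.79% fell. Their medians at 6 and 24 h were 0.16 and 0.26, against 0.21 and 0.24 for the 24 short genes of the set. Of the 1973 transcripts between, 29.1% rose and 6.23% fell, and of the 6986 over 13.6 kb 15% rose and 25.4% fell. The median of the 24 long genes of the set was -0.096 at 2 h, -0.11 at 6 h and -0.22 at 24 h, against -0.053, -0.022 and -0.036 for those 6986. No test of that difference was made. Within runs the coefficient of the 71 was -0.53 at 2 h in run 1, -0.45 at 2 h in run 2, -0.62 at 6 h in run 3, -0.30 at 6 h in run 2 and -0.48 at 24 h. It was -0.44, -0.41 and -0.52 at 2, 6 and 24 h for respiratory chain and ATP synthase genes and -0.11, 0.089 and 4.73e-04 for cytosolic ribosomal protein genes. Near promoters it was weak for the set (-0.22, -0.11 and -0.21).

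**Figure D4:**
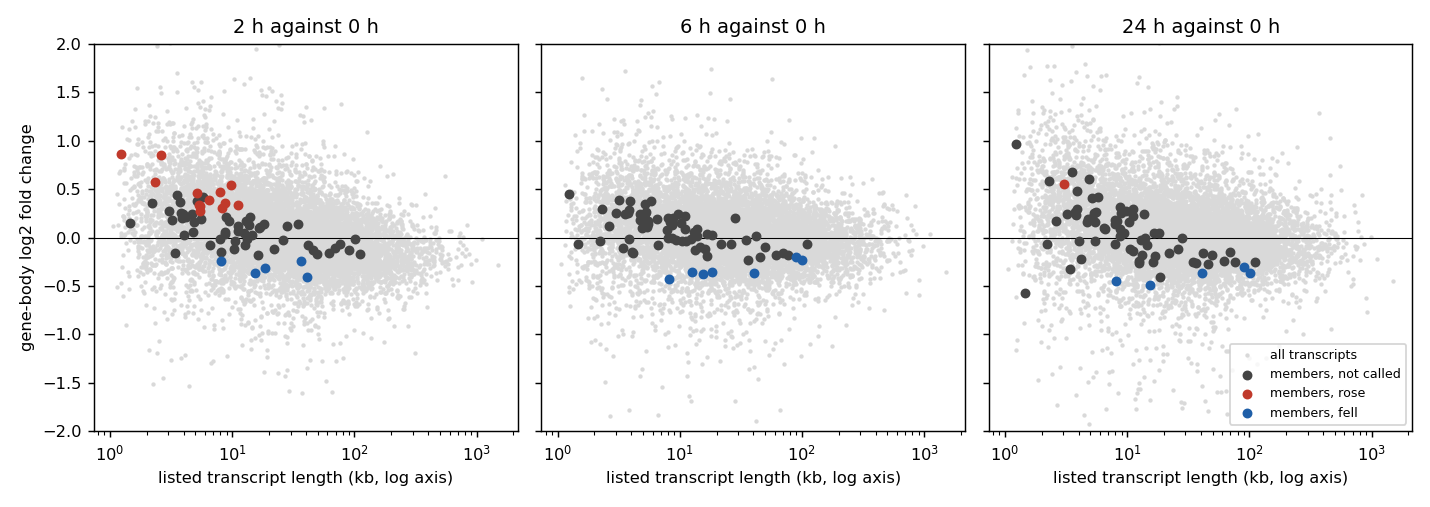
Gene-body log2 fold change against 0 h plotted against listed transcript length in kb (log axis) at 2, 6 and 24 h, with all transcripts in light grey and the 71 genes on top, red where they rose, blue where they fell and dark grey where they were not called. Long genes of the set lie mostly below 0 and short ones mostly above, and 4, 6 and 7 transcripts outside ±2 are not drawn.

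Near promoters few of these genes passed the test. At 2 h MRPL4 rose and MRPL44 fell, 2.82% of the 71, against 4.61% of all 9980 transcripts tested (2.43% rose and 2.17% fell). MRPL4 held 75.8, 60.6 and 50.5 promoter-proximal CPM at 2 h, against 38.0, 43.4, 41.7, 39.3 and 35.9 untreated, without overlap (0.72 ± 0.20; adjusted p = 0.0478). Its gene body was called lower at 6 and 24 h, and the promoter-proximal minus gene-body difference was 0.87 ± 0.24 at 2 h, 0.84 ± 0.24 at 6 h and 0.98 ± 0.29 at 24 h, the smallest p of the 71 at each time (limma adjusted p = 0.0864, 0.156 and 0.179). MRPL44, whose protein has a ribonuclease III fold, held 52.1, 72.8 and 88.9 CPM, against 170, 110, 44.9, 109 and 112 untreated, with the run 3 library lowest of all (-0.75 ± 0.21; adjusted p = 0.0430). At 6 h MRPL54 rose (0.74 ± 0.19; adjusted p = 0.0414), 1.41% of the 71, against 2.24% of all transcripts (0.802% rose and 1.44% fell). It held 198 and 235 CPM in run 2 and 108 and 101 in run 3, against 144 and 114 untreated in run 2, 69.0 in run 3 and 137 and 178 in run 1, so the groups overlapped across runs but not within run 2 or run 3.

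At 24 h edgeR called 0 of the 71 near promoters (7 at an unadjusted p under 0.05, and 1 in DESeq2), against 1.41% of all transcripts (0.631% rose and 0.782% fell). The smallest p was that of MRPS2 (-1.05 ± 0.29; adjusted p = 0.0738). The promoter-proximal minus gene-body change was called for 0 of the 71 at each time by limma, against 1.15%, 0.401% and 0.271% of all transcripts, and its medians were -0.11, -0.13 and -0.065. In run 2 alone it was called for 8, 1 and 6 of the 71, and the share of all transcripts in that fit is not given here. The promoter-proximal count at 2 h, with 13 genes at an unadjusted p under 0.05, was 0 in edgeR when any 2 h, 6 h, 24 h or untreated library of run 2 was left out, and 5 without 0 h B of run 1. The 3 promoter-proximal calls were seldom kept: they were lost in 10, 10 and 9 of the 14 that left out 1 library for MRPL4, MRPL44 and MRPL54. Scaling promoter-proximal counts by gene-body factors shifted the median of all transcripts to -0.16 at 2 h and -0.23 at 6 h and that of the 71 to -0.22 and -0.30. MRPL4, MRPL44 and MRPL54 then had values of 0.51, -0.86 and 0.50, and 0 genes were called. Without the run term MRPL54 was at 0.32 (adjusted p = 0.572).

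The runs were also compared separately. In gene bodies at 2 h, 35 of the 71 genes were higher in both run 1 and run 2, 12 were lower in both and 24 had opposite signs, with medians of 0.11 in run 1 and 0.13 in run 2. At 6 h, 25 were higher in both run 3 and run 2, 18 lower in both and 28 opposite, with medians of -0.0062 and 0.046. The Spearman coefficient between the runs' changes was 0.30 at 2 h and 0.17 at 6 h for the 71, and 0.46 and 0.55 for all transcripts. Each of the 18 genes called at 2 h and of the 7 called at 6 h had the same sign in both runs. The calls came from a model fitted to these same libraries, which favours genes that agree between runs, so this is no independent support.

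**Figure D5:**
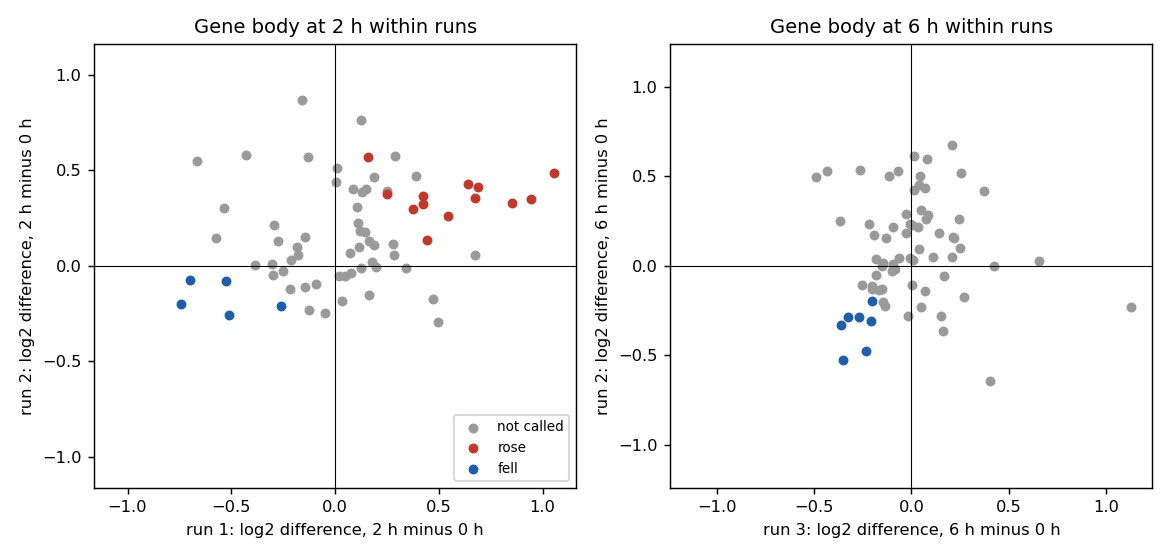
Gene-body log2 difference, treated minus 0 h, of each of the 71 genes within run 2 (vertical) against run 1 at 2 h (left) or run 3 at 6 h (right), with red for genes that rose, blue for genes that fell and grey for those not called. At 2 h 35 genes lie above 0 in both runs and 12 below 0 in both, and at 6 h 25 and 18 do.

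Neighbouring genes bear on several of these values, since the sources used here do not say which strand was counted or in which windows. MRPL20, MRPL49, MRPS7, MRPS12, MRPS16, MRPS18C and MRPS25 overlap another listed transcript, so their reads and their neighbours' cannot be told apart. A further 26 of the 71 have one within 1 kb without overlap. Whether the counting windows keep the reads of these 26 apart from their neighbours' is not known. Of the 63 genes with a RefSeq promoter, 23 (36.5%) have another start on the opposite strand within 1000 bases upstream, against 29.1% of genes in the tables. MRPL46 and MRPS11 share such a promoter, with 320 bases between their starts. Their gene-body changes at 2 h were -0.016 ± 0.12 and 0.063 ± 0.077, and neither was called at any time. MRPL18, which starts 210 bases from the chaperonin gene TCP1, rose at 2 h, and TCP1 rose too (0.28 ± 0.10; adjusted p = 0.0394). MRPL27 and its partner EME1, a subunit of a structure-specific endonuclease (0.26 ± 0.094; adjusted p = 0.0433), both rose. MRPL49 and MRPS12 rose while their partners FAU (0.025; adjusted p = 0.936) and SARS2 (0.015; 0.933) were not called. MRPL30 fell at 2 and 6 h while its partner MITD1 was at 0.087 and 0.26 (edgeR adjusted p = 0.665 and 0.217). MRPS18B rose at 2 h while its partner PPP1R10 was at 0.15 (edgeR adjusted p = 0.0599). PPP1R10 was called higher at 6 and 24 h (0.25 and 0.34, adjusted p = 0.0086 and 0.00619), and MRPS18B was not. CYB5RL (0.47; adjusted p = 0.004), TMEM63B (0.37; 0.037) and HELQ (0.21; 0.0394) rose at 2 h, and MRPL37, MRPL14 and MRPS18C, which start beside them, were not called (0.14, 0.13 and 0.41; adjusted p = 0.101, 0.317 and 0.0763). MRPS27 fell at 24 h, and its partner PTCD2 was at -0.18 ± 0.11 (adjusted p = 0.258).

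Genes with an ETS-type string in the promoter had median gene-body log2 fold changes of 0.20, 0.15 and 0.21 at 2, 6 and 24 h (n = 26), and those without it 0.062, -0.022 and -0.066 (n = 37). Of the 26, 7 rose and 3 fell at 2 h, and of the 37, 4 rose and 2 fell, where 19.7% of all transcripts rose and 18.9% fell. Their median lengths were 7.24 and 8.69 kb, and the part of length was not tested. For the YY1-type string the 2 h medians were 0.14 with it (n = 18) and 0.12 without it (n = 45). For the NRF1-type string the medians at 2, 6 and 24 h were 0.31, 0.23 and 0.36 with it (n = 6). Genes without it (n = 57) had 0.097, -0.00039 and 0.018, and median lengths were 5.66 and 8.82 kb. With the GC box 8 rose and 0 fell at 2 h (n = 37), and without it 3 rose and 5 fell (n = 26). The 2 h medians with and without CCAAT were 0.061 and 0.15, and with and without TATAAA 0.062 and 0.13. None of these differences was tested.

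The other nuclear genes of mitochondrial gene expression were counted beside the set, by lists chosen with earlier results of these data known. Their shares called in gene bodies stand against 38.6%, 26.8% and 19.8% of all transcripts at 2, 6 and 24 h. Of 7 mitoribosomal proteins that carry other symbols, 28.6%, 14.3% and 14.3% were called at 2, 6 and 24 h. PTCD3, a small-subunit protein with pentatricopeptide repeats, fell at all 3 times (-0.34 ± 0.068, -0.31 ± 0.068 and -0.32 ± 0.083, adjusted p = 0.00240, 0.00514 and 0.0168 in edgeR). GADD45GIP1, of the large subunit, rose at 2 h (0.50 ± 0.13; adjusted p = 0.0113), and AURKAIP1 rose near its promoter (1.06 ± 0.27; 0.0294). Of 16 translation factors and RNA stabilisers, 0 rose and 1, 3 and 2 fell at 2, 6 and 24 h in gene bodies (6.25%, 18.8% and 12.5% called). LRPPRC, which stabilises mitochondrial messenger RNA, fell at each time (-0.37, -0.43 and -0.54, adjusted p = 0.00804, 0.00456 and 0.00589), and its partner SLIRP fell at 24 h (-0.31; 0.0477). The ribosome recycling factor MRRF (-0.29) and the elongation factor GFM1 (-0.21) fell at 6 h. Of 26 assembly factors, 5, 3 and 3 rose and 1, 5 and 0 fell at the 3 times (23.1%, 30.8% and 11.5% called), with MPV17L2, needed for large-subunit assembly (0.89 ± 0.19 at 2 h), and FASTKD2, an RNA-binding factor (-0.45 ± 0.10 at 2 h), among them.

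Of 9 genes for transcription and replication of mitochondrial DNA, 22.2% were called at 2 h and again at 6 h. POLRMT, the mitochondrial RNA polymerase, rose at 2 h (0.41 ± 0.14; adjusted p = 0.0303), and POLG2, a polymerase subunit, fell (-0.29; 0.0103). SSBP1 (-0.42) and TFB2M (-0.27) fell at 6 h, and 0 of the 9 were called at 24 h (edgeR; 1 had an unadjusted p under 0.05). Of 9 regulators, 22.2%, 44.4% and 11.1% were called at the 3 times. GABPB2, a partner of the ETS factor GABPA, rose at all 3 times (0.71 ± 0.095, 0.84 ± 0.097 and 0.84 ± 0.12, adjusted p = 2.09e-04, 6.8e-05 and 4.38e-04 in edgeR). PPARGC1B, a coactivator, fell at 2 h (-0.30) and 6 h (-0.40), and MYC (-0.54) and PPRC1 (-0.25) fell at 6 h. The other genes looked for as regulators, among them NRF1, GABPA, GABPB1 and YY1, gave no gene-body call at any time.

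The genes of the 2 most similar groups were counted in the same test, and no test compared the groups. Among 77 cytosolic ribosomal protein genes 9, 0 and 3 rose and 5, 11 and 7 fell in gene bodies at 2, 6 and 24 h, with 18.2%, 14.3% and 13% called and medians of 0.051, -0.10 and -0.058. Among 74 respiratory chain and ATP synthase genes 15, 6 and 5 rose and 2, 1 and 1 fell, with 23%, 9.46% and 8.11% called and medians of 0.14, 0.026 and 0.012. For the 71 genes the counts were 13, 0 and 1 rises and 5, 7 and 5 falls (25.4%, 9.86% and 8.45% called). By the authors' deposited table of fold changes, 12, 0 and 2 of the 71 rose and 5, 7 and 7 fell in gene bodies, against 40.0%, 28.4% and 22.4% of all transcripts called. Near promoters 0 of the 71 were called there, against 0.757%, 0.903% and 0.369% of all transcripts. The authors' promoter-proximal medians of the 71 were -0.23, -0.31 and -0.27, against -0.044, -0.055 and -0.045 here. The authors' scaling was not matched here, and their medians over all transcripts are not given. A fall particular to these genes therefore cannot be read from these values. The cause of that difference was not tested.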

How the data were processed

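PRO-seq libraries of Kasumi-1 cells were deposited as 6 tables, 1 per time and region, over 10304 RefSeq transcripts on hg19. Per the submitters' processing notes, the tools were DESeq, DESeq2, HOMER, SAMtools, Bowtie2 (2.2.2) and Trimmomatic (0.32). Which strand was counted, and in which windows, is not given in the sources used here. The raw read counts, the authors' log2 fold changes and the authors' adjusted p-values were used, per the file headers. The 84 deposited normalized columns were not used, and 2 parental samples were not analysed here.

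The counts were fitted with edgeR 4.0.16 in R 4.3.3 (default expression filter, TMM, quasi-likelihood test, terms for time and run, 14 libraries, Benjamini-Hochberg over all transcripts, threshold 0.05). The promoter-proximal minus gene-body change used limma 3.58.1 on log2 CPM with a prior count of 2. Scripts were tested on simulated data. DESeq2 1.42.0, other scalings, no filter, no run term, run 2 alone, a block for the columns' letters and omission of each library were alternatives. Levels are CPM, and length is the listed transcript span. Promoter sequences are from RefSeq, GRCh38.p14.

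The genes, lists, tests and most alternatives were chosen with earlier results of these data known. Genes were named by rule: up to 8 rises and 8 falls per region and time by adjusted p, genes called at all 3 times, the 5 highest and 5 lowest by untreated level, and uncalled genes with the smallest p. Depth was 11182894 to 34209362 gene-body and 1667950 to 7171601 promoter-proximal reads per library, so genes with few reads are less precisely measured.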

Additional observations from a re-analysis of the deposited data

Results flagged for a closer look

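Of 116 groups of 4 or 5 libraries examined for the named genes, 7 held a library far from the others, and chance flags about 1 in 20. In gene bodies, MRPL19 held 44.3 CPM in 0 h A of run 1, against 32.1 to 35.1 in the other untreated libraries, and MRPS9 held 65.1 CPM in the same library, against 52.5 to 56.1. MRPL33 held 21.4 CPM in 0 h A of run 3, against 29.5 to 32.4 in the others. MRPL49 held 14.2 CPM in 6 h B of run 3, against 16.0 to 16.3 in the other 6 h libraries. Near promoters, MRPL30 held 59.5 CPM in 0 h B of run 1, against 34.0 to 40.6, and MRPL49 held 59.2 CPM in 0 h A of run 3, against 37.4 to 39.9. MRPL33 held 28.8 CPM near its promoter in 6 h A of run 2, against 42.5 to 43.5 in the other 6 h libraries. The 24 h and 2 h values of 2 genes differed in gene bodies by a direct edgeR contrast over all transcripts, MRPS27 by -0.349 ± 0.0803 (adjusted p = 0.0284) and MRPS5 by -0.39 ± 0.102 (adjusted p = 0.0496).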

How the results depend on the processing

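The 903 values recomputed under alternatives were counts of called genes and log2 fold changes of genes already called. Of these fold changes 0 reversed direction, which refits on mostly the same libraries make likely. Of the 34 calls, 1 (MRPL43 at 2 h) held under every alternative. For gene bodies at 2, 6 and 24 h the main counts were 18, 7 and 6. Without the run term 7 were called at 2 h and 12 at 6 h. In run 2 alone 26 were called at 6 h and 31 at 24 h. Leaving out both untreated libraries of run 1, chosen after seeing the data, gave 11, 16 and 14. Near promoters the main counts were 2, 1 and 0. Without the run term, and with gene-body scaling, 0 were called at 2 h and 0 at 6 h. In run 2 alone 12, 6 and 5 were called, with DESeq2 5 at 2 h and 1 at 24 h, and without both untreated libraries of run 1 5, 3 and 1. The difference of regions, 0 at each time, was called for 8, 1 and 6 in run 2 alone, which has 2 libraries a group. Leaving out 1 library gave 4 to 18, 1 to 11 and 0 to 10 in gene bodies, 0 to 5, 0 to 2 and 0 to 1 near promoters and 0 for the difference. Where that left a single 24 h library, it was assumed to vary like the other groups. The columns carry letters and run codes, not the labels' replicate numbers, and A minus B differences correlated between times of run 2 by only -0.068 to 0.13 across transcripts, so the letters were not taken to pair samples. With the letter within each run as a replicate block, added after seeing the data and with 5 residual degrees of freedom, 12, 6 and 4 were called in gene bodies, 0, 1 and 1 near promoters and 0 for the difference at each time. The causes of these shifts were not tested.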
